A study of Homo sapiens with 10 samples.

Results

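Caspases are cysteine proteases that are made as inactive precursors and carry out programmed cell death. CASP8 and CASP10 start the pathway at death receptors, to which the adaptor FADD recruits them, whereas CASP9 starts it on the apoptosome, a wheel of APAF1 that assembles when cytochrome c leaves the mitochondria. DIABLO leaves the mitochondria as well and relieves the block that inhibitor of apoptosis proteins place on caspases. CASP2 is an initiator activated on a platform of its own, CASP6 cleaves nuclear lamins downstream, and CASP4 is an inflammatory caspase that senses bacterial lipopolysaccharide inside the cell. Because these proteases are controlled mainly by cleavage and assembly, their mRNA levels are not a measure of their activity.

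The mRNAs of these 8 genes, CASP2, CASP4, CASP6, CASP8, CASP9, CASP10, APAF1 and DIABLO, were taken as every non-control probe whose gene name on the array is one of these symbols. They had 16 of the 41000 probes, and the array named 28090 genes in all. RNA came from PC-3 cells, a human prostate cancer line, and was hybridized to 10 single-color Agilent Whole Human Genome arrays. There were 2 arrays, called biological replicates in the labels, for each of 5 groups. These were untreated cells at 0 h and cells kept for 24 h with the solvent DMSO, with 60 µM luteolin, a plant flavone, with 60 µM gefitinib, an inhibitor of the EGF receptor kinase, or with both drugs at these concentrations. All drugs were dissolved in DMSO, so that the DMSO arrays are the control of equal duration. The results describe 1 cell line at 1 dose of each drug, and a lower signal in a dish of cells does not tell less RNA per cell from fewer cells carrying it.

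For the 6 drug-treated arrays, the treatment written in the name of the scanner file differed from the one in the sample labels. The luteolin-labelled arrays carry gefitinib in the file name, the gefitinib-labelled arrays carry both drugs, and the arrays labelled with both drugs (the combination-labelled arrays) carry luteolin. Read by the file names, 1 slide holds DMSO, luteolin, gefitinib and both drugs at successive positions, in the order in which the labels list the treatments, and a second slide holds 0 h, DMSO, luteolin and gefitinib, while the remaining array with both drugs shares a slide with 0 h. Read by the labels, the first 2 of these slides do not follow that order. Which reading is right was not settled here, so each drug name below is that of the label and not an established treatment. A change against DMSO or 0 h keeps its size under either reading and only the name of the drug moves, whereas the interaction of the drugs takes another value, which is given with it.

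Each array is described by its signal over background. The 75th percentile of the processed signal was 1177 to 1402 on the 0 h and DMSO arrays, 1041 and 1173 on the luteolin-labelled arrays, 628.4 and 650.7 on the gefitinib-labelled arrays, and 539.8 and 864.6 on the combination-labelled arrays. Levels are given below as log2 of the signal relative to this percentile of the same array, so that 0 is a bright probe and -4 a dim one. The levels of different probes are not comparable, and only the same probe is set against itself. The median of all genes rose by 0.22 on the log2 scale in gefitinib-labelled against DMSO arrays under this scaling and by 0.05 after quantile normalization. Of the marker genes examined, KRT8, KRT18, KRT19 and VIM were well above background on all 10 arrays. KLK3, an androgen-responsive gene, had 1 probe of levels 3.38 to 5.14 and 2 probes that were well above background on 0 arrays. Among 6 markers of blood, endothelial and stromal cells, PTPRC was well above background on 0 arrays, whereas the brightest probes of the other 5 had levels of -5.45 to -2.01 and were well above background on 9 or 10 arrays. Their summed relative signal ranged from 0.346 to 0.444 in the DMSO group, 0.379 to 0.676 in the luteolin-labelled group, 0.339 to 0.432 in the gefitinib-labelled group and 0.428 to 0.437 in the combination-labelled group, although single members moved. With the gefitinib label CD3E and CD14 were raised by 1.25 and 1.81 and COL1A1 fell by 2.22, and with the combination label CD14 was raised by 1.64 and COL1A1 fell by 1.54. The part of these genes in the results was not tested.

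All 8 genes entered the test, each through its brightest probe. A gene was called at an adjusted p under 0.05 in limma and a change of at least 2-fold. Against DMSO, 0 of the 8 were called on the luteolin-labelled arrays, where 7.22% of 19717 genes were called as raised and 6.17% as lowered. At an unadjusted p under 0.05 there were 2, as were 7578 of the 19717 genes. The methods' t-test, on 2 values per gene, called 0 here. It also called 0 with the gefitinib and combination labels against DMSO, so its 0 does not show absence of change. On the gefitinib-labelled arrays CASP8 was raised and CASP10 and APAF1 were lowered, against 15.6% of all genes raised and 14.3% lowered. On the combination-labelled arrays 0 genes were raised and 2, CASP4 and CASP6, were lowered, against 12.1% and 7.69% of all genes. The median change of the 8 genes was 0.19 with the luteolin label, -0.56 with the gefitinib label and -0.69 with the combination label, while the medians over all genes were 0.08, 0.22 and 0.16. The luteolin, gefitinib and combination comparisons share the DMSO arrays.

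**Figure D1:**
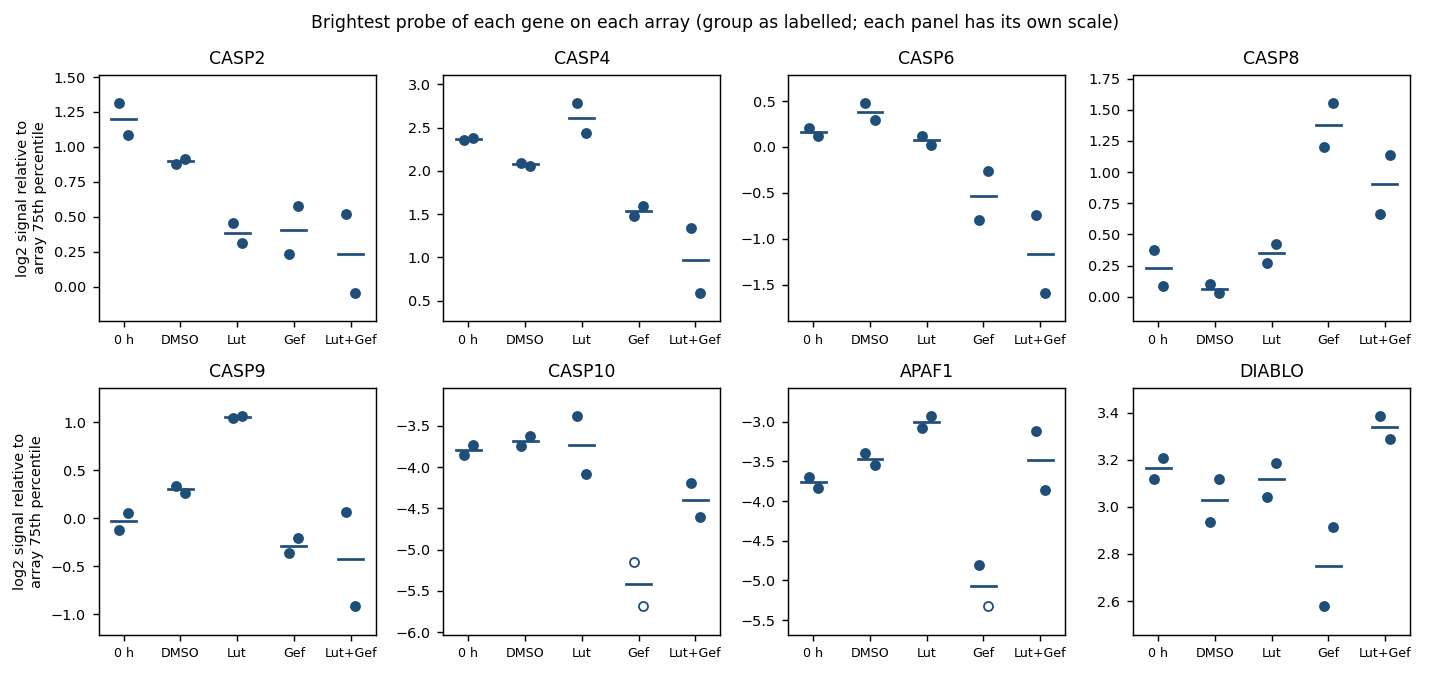
Level of the brightest probe of each gene on each of the 10 arrays, as log2 signal scaled to its array's 75th percentile, by labelled group (Lut, luteolin; Gef, gefitinib). Dots are arrays, open where the probe was not well above background, and bars are group means of 2 arrays; CASP10 and APAF1 lie lowest on the gefitinib-labelled arrays and CASP8 highest.

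The brightest CASP8 probe, spotted 10 times on each array at hg18 chr2:201859729-201859788, had levels of 0.38 and 0.08 at 0 h and of 0.10 and 0.03 with DMSO. Its levels were 0.27 and 0.43 on the luteolin-labelled, 1.20 and 1.55 on the gefitinib-labelled and 0.67 and 1.13 on the combination-labelled arrays. Both gefitinib-labelled arrays lay above every other array. The rise against DMSO was 1.31 ± 0.21 (SE from a spread pooled over the 5 groups, n = 2 per group, adjusted p = 0.0021) with the gefitinib label. The combination label gave 0.84 ± 0.21 (adjusted p = 0.0171), short of 2-fold, with a 95% interval of 0.35 to 1.32. The repeat spots of this probe had an SD of 0.107 to 0.128 on the log2 scale within an array. Before scaling, the processed signal of this probe was 1446 and 1312 with DMSO and 1498 and 1846 with the gefitinib label, so the rise is one relative to the other probes of the array.

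The other CASP8 probes moved the opposite way. The second lies 354 bases further along the plus strand, at chr2:201860083-201860142, and carries the same transcript accession. Its levels were -1.98 and -1.95 with DMSO, -2.04 and -2.44 with the luteolin label, -3.44 and -3.90 with the gefitinib label and -2.06 and -2.55 with the combination label. It fell by 1.71 ± 0.24 on the gefitinib-labelled arrays against DMSO (SE, adjusted p = 0.00107). The third probe, at chr2:201844501-201844560 and assigned to another transcript, was not well above background on either gefitinib-labelled array. It was at least 1.76-fold lower there than with DMSO (adjusted p = 0.00504 for the fitted change, not for this bound). The call of CASP8 as raised therefore rests on 1 of 3 probes. On every array the median over the 3 probes is the second probe. The change of this median, -1.70 against DMSO, is thus that of the second probe and not a further result. Exons and untranslated regions of hg18 were not used here, so the probes are placed by coordinate alone.

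**Figure D2:**
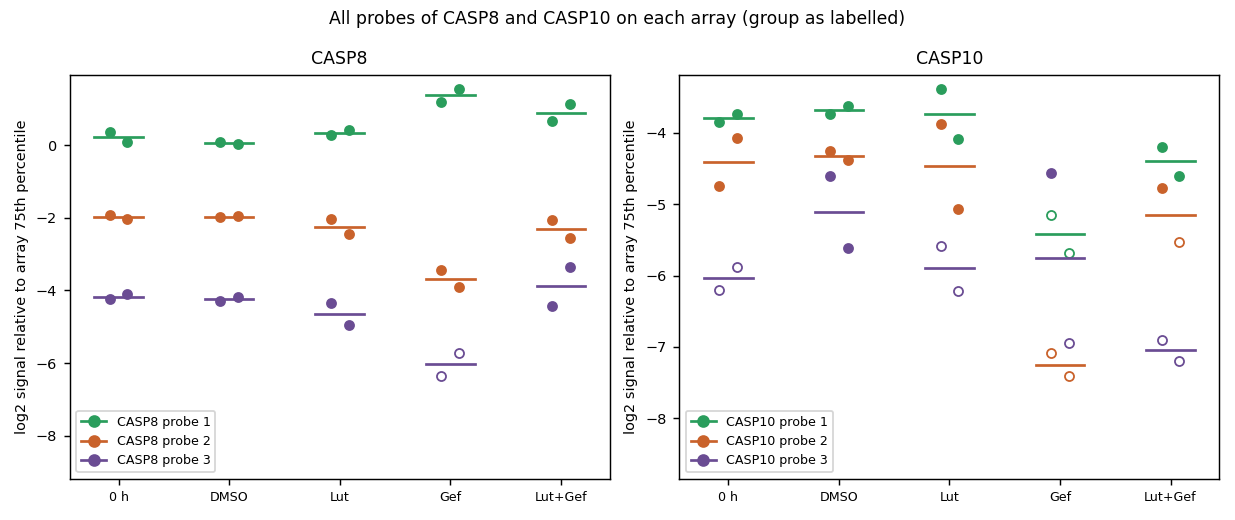
Levels of the 3 probes of CASP8 and of the 3 probes of CASP10 on each array by labelled group, on the same log2 scale as above; open dots are not well above background and bars are means of 2 arrays. On the gefitinib-labelled arrays the first CASP8 probe rises to 1.20 and 1.55 while the second falls to -3.44 and -3.90.

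CASP10, which shares its place at death receptors with CASP8 and lies next to it on chromosome 2, was dim throughout. Its brightest probe, at chr2:201792741-201792800, had levels of -3.85 and -3.73 at 0 h, -3.74 and -3.62 with DMSO, -3.38 and -4.09 with the luteolin label, -5.15 and -5.69 with the gefitinib label and -4.19 and -4.60 with the combination label. The gefitinib-labelled arrays were the lowest and were not well above background, which leaves only a bound. CASP10 was at least 2.59-fold lower there than with DMSO (adjusted p = 0.00193 for the fitted change). The second probe, at chr2:201792604-201792663, was at least 1.66-fold lower (adjusted p = 0.00121 for the fitted change). The third probe, at chr2:201765956-201766015, was well above background on 3 arrays and was not called on the gefitinib-labelled arrays. After normexp background correction, which adds an offset to every probe, the CASP10 change was -0.07 and was no longer called. The offset by itself shrinks the changes of dim probes, so the lost call does not show absence of change.

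CASP9, the initiator of the mitochondrial pathway, was highest on the luteolin-labelled arrays. Its brightest probe, at chr1:15691449-15691508 on the minus strand, had levels of -0.12 and 0.06 at 0 h, 0.34 and 0.26 with DMSO, 1.05 and 1.06 with the luteolin label, -0.36 and -0.21 with the gefitinib label and 0.07 and -0.92 with the combination label. The luteolin-labelled arrays did not overlap any other group. The change against DMSO was 0.75 ± 0.28 (SE, adjusted p = 0.0865) and was not called. The change against 0 h was 1.08 ± 0.28 (adjusted p = 0.0219) and was called. That call was lost when any of the 4 arrays compared was left out, at changes of 1.00 to 1.17, and with the slide as a block, at 1.02. The second CASP9 probe gave 0.67 ± 0.31 against DMSO and 1.10 ± 0.31 against 0 h.

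APAF1, the scaffold of the apoptosome, was represented by 1 probe at chr12:97652548-97652607. Its levels were -3.39 and -3.54 with DMSO, -3.08 and -2.93 with the luteolin label, -4.81 and -5.32 with the gefitinib label and -3.11 and -3.86 with the combination label. Both gefitinib-labelled arrays were below all others, and 1 of them was not well above background. APAF1 fell by 1.60 ± 0.27 there against DMSO (SE, adjusted p = 0.0023). It fell by 1.42 on the slide that held a DMSO and a gefitinib-labelled array. The combination label gave -0.02 ± 0.27, with an interval of -0.63 to 0.60. After normexp correction the change with the gefitinib label was -0.17 and was not called. The processed signal of this probe was 128.5 and 109.9 with DMSO and 23.23 and 15.67 with the gefitinib label. At such signals the normexp offset of 50 by itself shrinks a change, so the lost call does not show its absence.

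The RefSeq table had promoter entries for 7 of the 8 genes. The 250 bases before the start of APAF1 are shown because this gene changed with the gefitinib label, and those of CASP4 and CASP6 because both fell with the combination label. They are in GRCh38.p14, 5′ to 3′ on the strand of the gene, at chr12:98645040-98645289 (plus), chr11:104968575-104968824 (minus) and chr4:109703446-109703695 (minus). Capitals mark GGGCGG and CCAAT on either strand.
APAF1: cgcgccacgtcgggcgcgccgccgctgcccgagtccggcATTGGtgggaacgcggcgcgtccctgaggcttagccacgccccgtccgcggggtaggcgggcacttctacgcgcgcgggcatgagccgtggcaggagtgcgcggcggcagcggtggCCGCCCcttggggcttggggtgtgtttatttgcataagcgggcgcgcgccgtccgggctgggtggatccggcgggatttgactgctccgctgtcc
CASP4: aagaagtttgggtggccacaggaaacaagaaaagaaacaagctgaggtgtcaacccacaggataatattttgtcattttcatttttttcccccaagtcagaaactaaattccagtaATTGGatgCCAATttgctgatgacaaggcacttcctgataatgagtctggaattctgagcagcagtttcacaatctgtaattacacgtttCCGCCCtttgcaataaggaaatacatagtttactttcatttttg
CASP6: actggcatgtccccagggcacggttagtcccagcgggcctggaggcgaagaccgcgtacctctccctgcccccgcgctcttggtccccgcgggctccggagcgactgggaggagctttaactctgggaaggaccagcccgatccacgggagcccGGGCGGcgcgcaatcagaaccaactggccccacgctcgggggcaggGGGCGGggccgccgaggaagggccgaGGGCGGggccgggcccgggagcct
G and C made up 73.6% of the APAF1 window, 38% of the CASP4 window and 74% of the CASP6 window, where the median over 35116 promoter windows of this length was 58%. GGGCGG occurred 1 time before APAF1, 1 time before CASP4 and 3 times before CASP6, and 42.6% of all windows held it. CCAAT occurred 1 time before APAF1, 2 times before CASP4 and 0 times before CASP6, and 32% of all windows held it. TATAAA, held by 3763 of the 35116 windows, and TTTCGCGC or TTTGGCGC, held by 0.968%, occurred on either strand in 0 of the 3. CASP4 and CASP6, which were both called as lowered with the combination label, thus differed in the base composition of these windows.

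DIABLO, at chr12:121258511-121258570 on the minus strand, had group means that spanned 0.59, the narrowest range among the 8 genes. Its levels were 2.93 and 3.12 with DMSO, 3.04 and 3.19 with the luteolin label, 2.58 and 2.92 with the gefitinib label and 3.38 and 3.29 with the combination label. The changes against DMSO were 0.09 ± 0.17, -0.28 ± 0.17 and 0.31 ± 0.17 (SE), with intervals from -0.31 to 0.48, from -0.67 to 0.12 and from -0.09 to 0.70. None of these 3 changes was called.

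CASP2 was lower on each drug-treated array than on each DMSO array at 2 of its 3 probes, and at the third, dimmest probe these arrays overlapped. At all 3 probes the DMSO arrays in turn lay below the 0 h arrays. How many of all genes show such an order was not counted. The brightest of its 3 probes, at chr7:142714572-142714631, had levels of 1.31 and 1.08 at 0 h, 0.88 and 0.91 with DMSO, 0.46 and 0.32 with the luteolin label, 0.23 and 0.57 with the gefitinib label and 0.52 and -0.04 with the combination label. The changes against DMSO were -0.51 ± 0.22, -0.49 ± 0.22 and -0.66 ± 0.22 (SE, adjusted p = 0.128, 0.0909 and 0.0435) and were all short of 2-fold. The third comparison passed the adjusted p alone. The other 2 probes had changes of -0.49 to -0.12 in these comparisons and were not called.

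CASP6, the executioner of this set, had 1 probe at chr4:110830094-110830153 on the minus strand. Its levels were 0.21 and 0.12 at 0 h, 0.48 and 0.29 with DMSO, 0.12 and 0.02 with the luteolin label, -0.79 and -0.26 with the gefitinib label and -0.74 and -1.59 with the combination label. The gefitinib-labelled and combination-labelled arrays overlapped each other and lay below all other arrays. With the combination label CASP6 fell by 1.55 ± 0.28 against DMSO (SE, adjusted p = 0.00531), and within the slides it fell by 1.22 and 1.88. The SD of its 2 arrays was 0.60 with the combination label and 0.13 with DMSO, whereas the SE is from a spread pooled over all groups. With the gefitinib label the change was -0.91 ± 0.28 (adjusted p = 0.0264), short of 2-fold. It passed both limits with the slide as a block, at -1.13, and without gefitinib replicate 2, at -1.18.

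CASP4 was measured by 2 probes, the brighter at chr11:104320702-104320761 and the other at chr11:104318839-104318898, both on the minus strand. The brighter probe had levels of 2.36 and 2.39 at 0 h, 2.09 and 2.06 with DMSO, 2.79 and 2.44 with the luteolin label, 1.48 and 1.59 with the gefitinib label and 1.34 and 0.59 with the combination label. The luteolin-labelled arrays lay above and the gefitinib-labelled and combination-labelled arrays below all control arrays. CASP4 fell by 1.11 ± 0.25 with the combination label against DMSO (SE, adjusted p = 0.0101). The SD of its 2 arrays was 0.53 with the combination label and 0.02 with DMSO. The changes with the luteolin and gefitinib labels were 0.54 and -0.54, each ± 0.25 (adjusted p = 0.147 and 0.0953), and were not called. The second probe gave -0.85 ± 0.21 with the combination label, short of 2-fold. The call was lost without either DMSO array and without combination replicate 2, at -0.73. It was lost as well after normexp correction, with the median over the 2 probes and with the methods' t-test. Under the file names' treatments the change with both drugs was -0.54 (adjusted p = 0.0953) and was not called. That is the change of the gefitinib-labelled arrays under another name. In all, 15 of 23 alternatives kept the call, with changes of -1.49 to -0.54 over all of them, this renaming included.

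**Figure D3:**
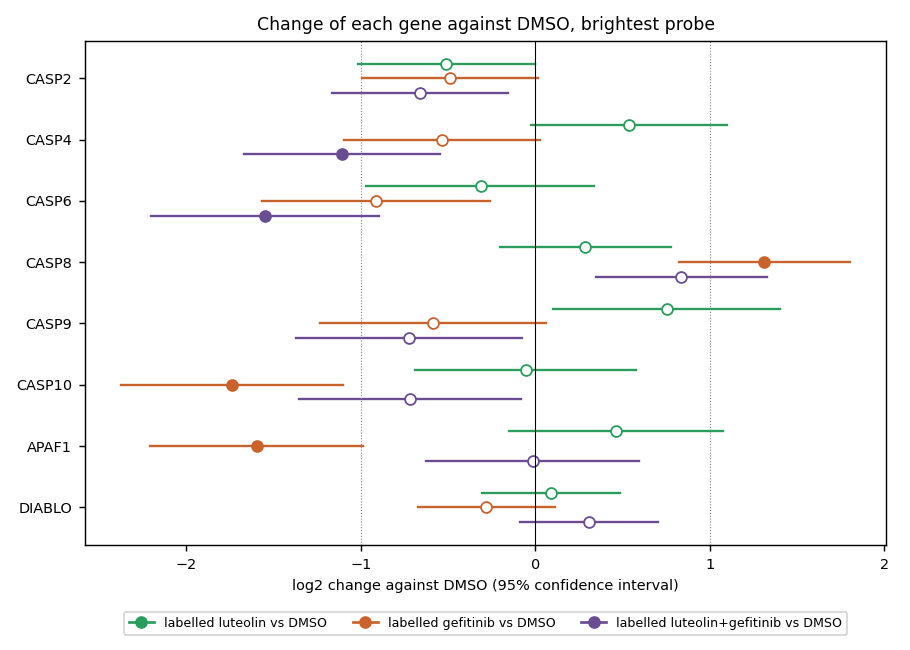
Log2 change of the brightest probe of each gene against DMSO on the luteolin-labelled, gefitinib-labelled and combination-labelled arrays, with 95% confidence intervals from the fit (n = 2 arrays per group). Filled dots were called and dotted lines mark 2-fold; with the luteolin label 0 of 8 genes were called.

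Time in DMSO alone did not move any of the 8 genes past the limits. Between DMSO at 24 h and 0 h, 0 were called and 0 had an unadjusted p under 0.05 in limma, where 0.0254% of all genes were called as raised and 0.0101% as lowered. The methods' t-test called 0 too, as it did with the gefitinib and combination labels against DMSO, so its 0 adds nothing here. Against 0 h, CASP9 was raised with the luteolin label, where 8.26% of all genes were raised and 7.85% lowered. CASP8 was raised and CASP10 and APAF1 were lowered with the gefitinib label, where 14.5% of all genes were raised and 14.5% lowered. CASP4 and CASP6 were lowered with the combination label, where 11.5% were raised and 8.32% lowered. Against 0 h, CASP4 fell by 1.41 ± 0.25 and CASP6 fell by 1.33 ± 0.28 (SE, adjusted p = 0.00427 and 0.00893). CASP10 was at least 2.4-fold lower with the gefitinib label than at 0 h (adjusted p = 0.00245 for the fitted change). After normexp correction the changes of CASP10 and APAF1 against 0 h were 0.02 and 0.04 and were not called. Its offset by itself shrinks the changes of these dim probes. Without gefitinib replicate 2 CASP8 was not called against 0 h, at 0.97, and without combination replicate 2 neither was CASP6, at -0.91.

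The groups labelled with luteolin and with gefitinib, at the same concentration and time, differed in 5 of the 8 genes. CASP4, CASP9, CASP10 and APAF1 were higher with the luteolin label, where 18.1% of all genes were higher, and CASP8 was lower, where 18.5% were lower. APAF1 differed by 2.06 ± 0.27 (SE, adjusted p = 0.000452), CASP9 by 1.34 ± 0.28 (adjusted p = 0.00427) and CASP4 by 1.08 ± 0.25 (adjusted p = 0.00602). CASP10 was at least 2.49-fold higher with the luteolin label (adjusted p = 0.00133 for the fitted difference). CASP8 differed by -1.03 ± 0.21 (adjusted p = 0.00396) at its brightest probe and by 1.43 ± 0.24 (adjusted p = 0.00132) at the second. After normexp correction APAF1, CASP10 and CASP4 differed by 0.54, 0.14 and 0.83 and were not called. For the dim probes of APAF1 and CASP10 the offset by itself shrinks a difference. CASP8 was not called after quantile normalization, at -0.94, with the slide as a block, at -0.91, or without gefitinib replicate 2 or luteolin replicate 1, at -0.85 and -0.95. CASP4 was not called without luteolin replicate 1, at 0.90. CASP2 differed by -0.02, with an interval of -0.52 to 0.49, CASP6 by 0.60, with an interval of -0.06 to 1.25, and DIABLO by 0.37, with an interval of -0.03 to 0.76.

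Between the combination-labelled and luteolin-labelled arrays 3 genes were lower, against 9.76% of all genes lower and 11.3% higher. CASP4 fell by 1.65 ± 0.25, CASP9 by 1.48 ± 0.28 and CASP6 by 1.23 ± 0.28 (SE, adjusted p = 0.00193, 0.00511 and 0.0107). Without combination replicate 2 only CASP4 was called here, without luteolin replicate 1 CASP6 was not (adjusted p = 0.0531), and the CASP9 levels of the combination-labelled arrays were nearly 1 apart. Between the combination-labelled and gefitinib-labelled arrays CASP10 and APAF1 were higher, against 17.2% of all genes higher and 9.76% lower. APAF1 differed by 1.58 ± 0.27 (adjusted p = 0.00191). CASP10 was at least 1.57-fold higher, a bound short of 2-fold. Its call rests on the fitted difference (adjusted p = 0.0168), which uses gefitinib-labelled values not well above background. After normexp correction, whose offset shrinks differences of dim probes, the APAF1 and CASP10 differences were 0.47 and 0.16 and were not called. The fitted CASP10 difference of 1.02 also lost its call after quantile normalization, at 0.91, with the slide as a block, at 0.94, without gefitinib replicate 2, at 0.75, and without combination replicate 1, at 0.82. These 3 pairwise comparisons of drug-treated groups were adjusted over all probes, each on its own.

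The interaction of the drugs, which is the change with both minus the sum of the changes with each, all against DMSO, was called for 1 of the 8 genes, where 34.2% of all genes were called at the adjusted p alone. CASP4 had an interaction of -1.11 ± 0.35 (SE, adjusted p = 0.0389), and its second probe -1.04 ± 0.29 (adjusted p = 0.0268). The call of the brighter probe was lost in 8 of the 10 fits that left out an array and was kept without either combination-labelled array. The interaction was -1.28 to -0.94 in the 8 fits that lost it, and -1.01 with the slide as a block (adjusted p = 0.067), which lost it too. Quantile normalization also lost it, at -1.02 (adjusted p = 0.0568). Under the file names' treatments, the CASP4 interaction was 0.03 ± 0.35 and APAF1 was called instead, at -2.04 ± 0.38 (adjusted p = 0.00314). Over all alternatives with limma, the adjusted p of the CASP4 interaction ran from 0.00497 to 0.948.

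The wider pathway was described through 4 lists of other caspases, adaptors and regulators, inhibitors of apoptosis with their antagonists, and proteins downstream of the executioners. Of their 33 genes, 30 were tested. Against DMSO, 1 was raised and 4 were lowered with the luteolin label, 2 raised and 3 lowered with the gefitinib label, and 3 raised and 7 lowered with the combination label. Of all genes, 7.22% were raised and 6.17% lowered with the luteolin label, 15.6% and 14.3% with the gefitinib label and 12.1% and 7.69% with the combination label, and the counts of each list below stand against these shares. Their median changes were -0.23, 0.05 and -0.39, where the medians over all genes were 0.08, 0.22 and 0.16. CASP12, CASP14 and BIRC7 were not tested, since they were well above background on 0 arrays.

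Of the 4 other caspases, 2 were tested, and both were called as lowered with the combination label and in neither direction with the luteolin or gefitinib label. CASP1, an inflammatory caspase like CASP4, was well above background on 1 DMSO array and on 0 combination-labelled arrays, so no fold is given. Its call was lost without DMSO replicate 2 (adjusted p = 0.0667), and after normexp correction its change was 0.30 and not called. CASP5, also an inflammatory caspase and named after its values were seen, fell by 1.18 ± 0.27 (SE, adjusted p = 0.0111).

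Of the 11 adaptors and regulators, all tested, 2 were lowered with the gefitinib label and 3 with the combination label, and 0 were called with the luteolin label. FADD, the adaptor that brings CASP8 and CASP10 to death receptors, had levels of 4.03 and 4.08 with DMSO, 0.67 and 0.17 with the gefitinib label and 3.94 and 3.49 with the combination label. With the gefitinib label it fell by 3.64 ± 0.22 (SE, adjusted p = 5.56e-05). CASP8AP2, which binds CASP8, fell by 1.41 ± 0.17 on the same arrays (adjusted p = 0.000532). With the combination label CFLAR, a catalytically inactive relative of CASP8 that restrains it, fell by 1.49 ± 0.22, and PYCARD, the inflammasome adaptor, fell by 1.37 ± 0.15 (adjusted p = 0.00243 and 0.000975). Against 0 h the PYCARD change with this label was -0.753, short of 2-fold.

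Of the 8 inhibitors of apoptosis and antagonists tested, 2 were raised with the gefitinib label, 3 with the combination label and 1 with the luteolin label, while 2 were lowered with the luteolin label and 1 with the combination label. BIRC3, a ubiquitin ligase of this family, was raised by 1.91 ± 0.34 with the gefitinib label and by 1.56 ± 0.34 with the combination label (SE, adjusted p = 0.00299 and 0.00995). BIRC2, its close relative, was raised by 1.34 ± 0.20 and by 1.12 ± 0.20 (adjusted p = 0.00141 and 0.00452). Against 0 h the changes with these labels were 0.997 and 0.643 for BIRC3 and 0.838 and 0.616 for BIRC2, and none was called. Between DMSO and 0 h BIRC3 changed by -0.917 and BIRC2 by -0.50, neither called, so the rises are larger against DMSO than against 0 h. The BIRC3 call with the combination label was lost without DMSO replicate 1 (adjusted p = 0.0691). The BIRC2 change with the gefitinib label was 0.98 after quantile normalization, just short of 2-fold. BIRC5, survivin, fell by 2.11 ± 0.21 with the luteolin label (adjusted p = 0.000752), from levels of 5.51 and 5.46 to 3.56 and 3.18. XAF1, an antagonist of XIAP, was at least 4.74-fold lower with the luteolin label (adjusted p = 0.00994 for the fitted change), and this call was lost without DMSO replicate 2 or luteolin replicate 2. NAIP fell by 1.59 ± 0.20 with the combination label (adjusted p = 0.00158).

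Of the 9 genes downstream of the executioners, all tested, 2 were lowered with the luteolin label, 1 with the gefitinib label and 1 with the combination label, and 0 were raised. DFFB, the nuclease that cuts DNA during apoptosis, fell by 1.79 ± 0.21 with the gefitinib label (SE, adjusted p = 0.000532). PARP1, a DNA repair enzyme that caspases cleave, fell by 1.18 ± 0.18 with the luteolin label (adjusted p = 0.00305), from levels of 3.75 and 3.71 with DMSO to 2.72 and 2.37. After normexp correction the changes of DFFB and CASP8AP2 with the gefitinib label were -0.99 and -0.96, just short of 2-fold.

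**Figure D4:**
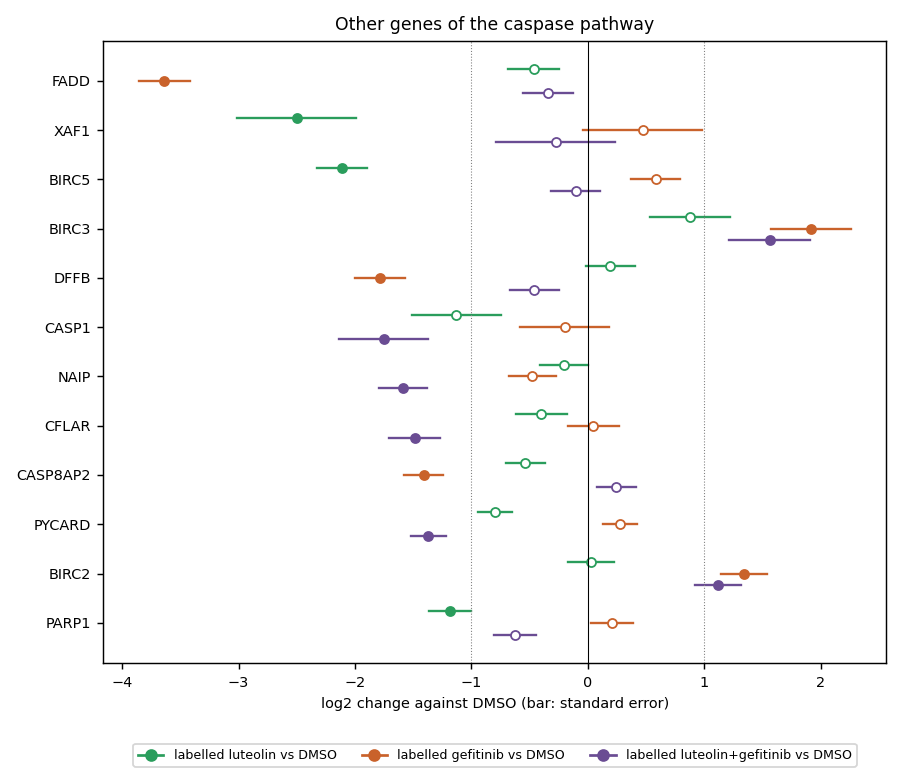
Log2 change against DMSO of the other genes of the pathway that are named, on the luteolin-labelled, gefitinib-labelled and combination-labelled arrays, with bars of 1 standard error (n = 2 arrays per group). Filled dots were called and dotted lines mark 2-fold; FADD lies furthest to the left with the gefitinib label, where it fell by 3.64.

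APAF1 and CASP10 had the widest ranges of measured group means, 2.06 and 1.74 on the log2 scale. The low end of CASP10 was not well above background, and at its bound CASP10 was 1.37 below DMSO, less than the range of 1.65 of CASP4, so its place in this order is not fixed. Among 16263 genes well above background on all 10 arrays, those whose levels over the arrays were most like APAF1 were SEMA4C, BTG1 and TRIM39, with Pearson's r of 0.986, 0.985 and 0.984. Those most like CASP10 were ID2, P3H4 and RELCH, with r of 0.985, 0.982 and 0.98. The 10 arrays fall into 5 groups, so these values describe shared differences between groups.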

How the data were processed

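Signals on the 10 arrays were extracted with Feature Extraction software of Agilent (10.7.3.1 per the file headers). The deposited intensities are processed signals, which the authors' software made by subtracting background and spatial trend within each array, and arrays were not normalized to each other. The values tabulated for the whole series were equal to these at 45015 spots on each array (relative tolerance 1e-04), with 0 unused columns. Files were read with R 4.3.3 and version 1.17.8 of data.table and fitted with limma 3.58.1. Control and outlier spots were left out, spots of a probe averaged, and log2 signals taken relative to the array's 75th percentile. A probe was well above background on an array if at least 50% of its spots were so marked, and was kept (28774 probes) if this held on both arrays of a group. Accessions of 23958 probes gave current symbols from RefSeq.

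One model with 5 groups was fitted, with 5 residual and 3.36 prior degrees of freedom, eBayes and Benjamini-Hochberg adjustment over all probes kept. In the 11 comparisons, a call needed an adjusted p below 0.05 together with at least 1 log2 unit of change (the interaction: adjusted p alone), read from the kept probe with the highest mean. For groups not above background, the fold is a bound from the higher of each array's probe signal and its lowest signal well above background. The adjusted p printed beside a bound is that of the fitted difference. Having 2 arrays per group limits precision, and p-values measure only the spread between arrays of a group. Each SE uses a spread pooled over the 5 groups and not that of the arrays compared alone. The median SD within a group ranged from 0.091 to 0.255 between groups. The 8 genes and the lists were chosen with earlier results of these data known. Besides the 8 genes, the text names at most 12 pathway genes called against DMSO, those with the largest change, CASP5, chosen after its values were seen, and for the 2 genes of widest range the 3 most alike. Alternatives were normexp (offset 50), quantile normalization, other filters, the tabulated values, replicate and slide blocks, only the groups compared, the file names' treatments, no minimum fold, the median over probes, the methods' 1-sample t-test and leaving out each array. Some genes of the lists are not reported here. The fit was tested on simulated arrays.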

Additional observations from a re-analysis of the deposited data

Results flagged for a closer look

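The interaction of the drugs passed the adjusted p at 5 of the 16 probes of the 8 genes. By the brightest probe of each gene it passed for 1 of the 8, where 34.2% of all genes did by theirs. No share over all probes was taken for the count of 5. CASP4 was flagged at both probes, with interactions of -1.11 ± 0.35 and -1.04 ± 0.29 on the log2 scale (SE, adjusted p = 0.0389 and 0.0268). The CASP8 probes at chr2:201860083-201860142 and chr2:201844501-201844560 had interactions of 1.63 ± 0.33 and 2.56 ± 0.52 (adjusted p = 0.00718 and 0.00737), and the brightest CASP8 probe -0.76 ± 0.30 (adjusted p = 0.0845). The CASP10 probe at chr2:201792604-201792663 had an interaction of 2.25 ± 0.59 (adjusted p = 0.0201). The latter CASP8 probe and this CASP10 probe were not well above background on either gefitinib-labelled array, the CASP10 probe also on 1 combination-labelled array, so the size of these 2 values is not measured. Under the file names' treatments the interactions were 0.03 and 0.04 at the CASP4 probes (adjusted p = 0.948 and 0.925), -1.09, -1.73 and 0.19 at these CASP8 probes in the same order (adjusted p = 0.0283, 0.0272 and 0.644) and -1.94 at the CASP10 probe (adjusted p = 0.0274), so that no probe kept both its direction and its call.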

How the results depend on the processing

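The replicate numbers paired the arrays weakly at most, since deviations of equally numbered arrays correlated at -0.10 to 0.29 over 10 pairs of groups. In the DMSO, luteolin-labelled and combination-labelled groups the replicate number goes with the slide. With the replicate block 3 genes rather than 1 were called for the interaction (CASP4, CASP10 and APAF1), and the count of no other comparison changed. With the treatments of the file names 2 genes were called for luteolin against DMSO, 0 for gefitinib against DMSO, 2 for luteolin and 1 for gefitinib against 0 h, 3 for luteolin against gefitinib and 5 for both drugs against gefitinib. Read by the file names, APAF1 changed by 0.46 with gefitinib and CASP4 by -1.11 with luteolin against DMSO. These are the changes of the luteolin-labelled and the combination-labelled arrays under other names, so neither change was reversed on its arrays. The median over probes, which for CASP8 is its second probe on every array, gave CASP8 that probe's change of -1.70 with the gefitinib label. It gave 1 gene for the combination against DMSO, 3 for luteolin against gefitinib and 2 for the interaction. Normexp gave 1 gene for gefitinib against DMSO and against 0 h and for the combination against DMSO, 2 for luteolin against gefitinib and 0 for the combination against gefitinib. Probes well above background on all arrays left 6 genes, with 1 called for gefitinib against DMSO and against 0 h, 3 for luteolin against gefitinib and 0 for the combination against gefitinib. Quantile normalization gave 1 for the combination against gefitinib and 2 for the interaction, which were APAF1 and CASP10 and not CASP4. The slide as a block gave 0 for luteolin against 0 h, 1 for the combination against gefitinib and 0 for the interaction, which was also 0 with no filter or only the groups compared. Without a minimum fold, 4 genes were called for the combination against DMSO and against 0 h, 5 for gefitinib and 2 for luteolin against 0 h. The methods' t-test called 3 genes for luteolin against gefitinib and 1 for luteolin against 0 h without adjustment, and 0 in the other comparisons tested. With adjustment it called 0 in all 10. Leaving out each array gave 0 to 0 genes for luteolin against DMSO, 3 to 4 for gefitinib, 1 to 4 for the combination and 0 to 0 for DMSO against 0 h. Against 0 h the counts were 0 to 1 for luteolin, 2 to 3 for gefitinib and 1 to 3 for the combination. They were 3 to 5 for luteolin against gefitinib, 1 to 4 for the combination against luteolin, 1 to 2 for the combination against gefitinib and 0 to 3 for the interaction. The lone array of a group was then assumed to vary like the others. For the changes of the 8 genes against DMSO, 511 of the values under alternatives kept their side of the limits, 21 lost a call, 11 gained one and 3 were reversed. The 3 are the second CASP8 probe, taken as the median, and the 2 renamed changes of APAF1 and CASP4. The treatments of the file names are among the alternatives counted, here and below, although they only rename these changes. Most of the 511 were changes that were not called and stayed so. The calls with the gefitinib label were kept in 19 of 23 alternatives for CASP8 and in 18 of 22 for CASP10 and for APAF1. Those with the combination label were kept in 15 of 23 for CASP4 and in 20 of 23 for CASP6. The cause of these differences was not tested. CASP10 and APAF1 are dim, and their signal over background limits what their values show.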
